A study of Rattus norvegicus with 12 samples.

Results

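A set of 9 genes that mark the endothelium of the liver were read in whole liver of adrenalectomized rats given the synthetic glucocorticoid dexamethasone or vehicle. They were the receptors Kdr, Flt1 and Tek, the scavenger receptors Lyve1 and Stab2, the coreceptor Eng, the adhesion molecules Pecam1 and Cdh5, and the clotting protein Vwf. The members were all probes whose gene name in the scanner files, without the suffixes for predicted or mapped genes and with the older name Xlkd1 taken for Lyve1, was one of these 9 symbols. That rule found 12 probes of 8 genes among 41012 probes on the array. Pecam1 stood in the files under the older name Pecam, outside the rule, and was added through its transcript accession in the reference table, which made 13 probes of 9 genes. Of these, 11 probes of 8 genes passed the filter on dim probes, against 28173 probes and 24296 genes in all. The probe of Tek was well above background on 2 of 12 arrays, and the second Vwf probe on 0 of 12.

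The rats were Sprague-Dawley animals of 8 to 10 weeks, and the females were used in the first day of diestrus. All of them, vehicle animals included, had no adrenal glands, so the source of their own corticosterone had been removed. They received 400 µl of phosphate-buffered saline or 1 mg/kg dexamethasone into the peritoneum, and the liver was taken 6 h later. The 4 groups, vehicle and dexamethasone in each sex, had 3 one-colour Agilent arrays each. Each array held RNA pooled from 3 animals, so a group stood for 9 animals and the spread between arrays is a spread between pools. The comparisons ask what dexamethasone did in each sex, and whether the sexes differed in that response.

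Endothelial cells line every blood vessel, and in the liver most of them form the sinusoids, whose thin, perforated wall lets plasma reach the hepatocytes. Kdr (VEGF receptor 2) is the main signalling receptor for VEGF-A, and Flt1 (VEGF receptor 1) binds the same ligand with little signal of its own. Lyve1, a hyaluronan receptor, and Stab2, a scavenger receptor for hyaluronan, are typical of sinusoidal endothelium, while Vwf, Cdh5 (VE-cadherin) and Pecam1 are best known from larger vessels. Eng (endoglin) assists ALK1, the receptor for BMP9, a ligand made in the liver. Tek (Tie2) is the receptor for angiopoietins.

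The measurement rests on a single oligonucleotide of 60 bases per probe. Lyve1 had a pair of separate probes, both read from the same RNA pools on the same arrays. The sequences of Kdr and Lyve1 are shown because the results turn on these genes. They are given 5′ to 3′ as in the scanner files, with no base marked.
Kdr: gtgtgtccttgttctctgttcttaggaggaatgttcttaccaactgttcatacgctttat
Lyve1, brighter probe: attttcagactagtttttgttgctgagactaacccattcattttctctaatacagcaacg
Lyve1, dimmer probe: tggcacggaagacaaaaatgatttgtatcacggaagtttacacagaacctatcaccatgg
The Lyve1 probes share no run longer than 5 bases, so they are different sequences. Both were assigned to Lyve1 by its older symbol, and their place in the transcript was not checked. Over the 13 probes the GC content ran from 35% (the brighter Lyve1 probe and Tek) to 55% (Eng). In the RefSeq annotation of the GRCr8 assembly, Kdr lies at chr14:32572031-32615204 and Lyve1 at chr1:174393387-174410977.

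RefSeq promoter windows, from 250 bases before to 50 bases after a listed start, were available for 5 of the 9 genes (Kdr, Flt1, Lyve1, Stab2 and Eng). Those of Stab2 (chr7:23320513-23320812, minus strand) and Flt1 (chr12:12333180-12333479, plus strand) lay inside the genes' annotated spans. These spans are chr7:23136938-23342633 and chr12:12333050-12504750, so these windows do not cover the outer gene starts. The 5 windows were searched on both strands for the full glucocorticoid response element (AGAACA and TGTTC with any 3 bases between) and for the hexamer AGAACA, which the full element contains. The full element was in 0 of the 5 windows and in 0.0388% of all 33469 windows of that length. The hexamer occurred in the window of Lyve1 alone, at position -50 relative to the start, and 20.7% of all windows held it. The ETS motif CCGGAAG, after a transcription factor family active in endothelium, was in 0 of the 5 windows against 8.75% of all. The windows of Lyve1 and Kdr follow, chosen because these genes moved in opposite directions after dexamethasone, with the hexamer in capitals.
Lyve1, GRCr8 chr1:174410928-174411227, minus strand: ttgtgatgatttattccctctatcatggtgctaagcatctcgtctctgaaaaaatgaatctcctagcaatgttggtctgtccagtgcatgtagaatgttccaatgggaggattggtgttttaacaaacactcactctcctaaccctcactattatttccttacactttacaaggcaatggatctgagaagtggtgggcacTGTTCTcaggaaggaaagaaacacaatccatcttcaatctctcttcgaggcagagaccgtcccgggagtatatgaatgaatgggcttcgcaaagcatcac
Kdr, GRCr8 chr14:32571813-32572112, plus strand: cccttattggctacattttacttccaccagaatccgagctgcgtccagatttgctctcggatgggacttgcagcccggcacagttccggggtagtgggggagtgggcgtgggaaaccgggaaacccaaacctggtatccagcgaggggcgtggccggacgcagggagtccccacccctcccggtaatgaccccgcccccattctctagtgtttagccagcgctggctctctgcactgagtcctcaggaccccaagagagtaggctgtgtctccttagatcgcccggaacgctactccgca
A match describes letters only, and no match says nothing of a factor's binding elsewhere.

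Values are log2 of the scanner's processed signal minus the 75th percentile of that signal on the same array, so that 0 is the 75th percentile and 1 unit is a doubling. A gene was called where limma's moderated test, adjusted by Benjamini-Hochberg over all 24296 genes, fell under 0.05. The brightest probe stood for a gene. The known glucocorticoid targets Fkbp5, Per1, Tsc22d3 and Tat were higher after dexamethasone in both sexes, from 3.95-fold (Tat in females) to 23.3-fold (Fkbp5 in females). The 12 arrays lay on 5 slides, and slide 5 held the third array of every group. Probes well above background made up 52.5% to 61.4% on the arrays of slide 5 and 62.2% to 69.2% on the others. The female dexamethasone arrays 1 and 2 were alone on slide 4, so that a slide correction leaves the female comparison resting on slide 5.

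After dexamethasone 1 of the 8 measured genes was called in males, higher, and 2 were called in females, 1 higher and 1 lower. Lyve1 was the gene called higher in both sexes, and Kdr was lower in females. Of all genes, 20.1% were called in males and 24.4% in females, so the members' shares are near this background. By direction, 9.34% of all genes were higher and 10.8% lower in males, and 11.7% higher and 12.6% lower in females. Centring the arrays on their median instead raised the share of higher genes among the female calls from 48.2% to 65.2% and the median female difference of all genes from -0.08 to 0.13. The median log2 difference of the 8 genes was 0.11 in males, against 0.01 over all genes, and -0.37 in females, against -0.08. Vehicle and dexamethasone arrays did not overlap for 2 of the 8 genes in males (Kdr and Lyve1) and for 3 in females (Kdr, Vwf and Cdh5), while 35.2% and 43.1% of all genes had groups that did not overlap.

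**Figure D1:**
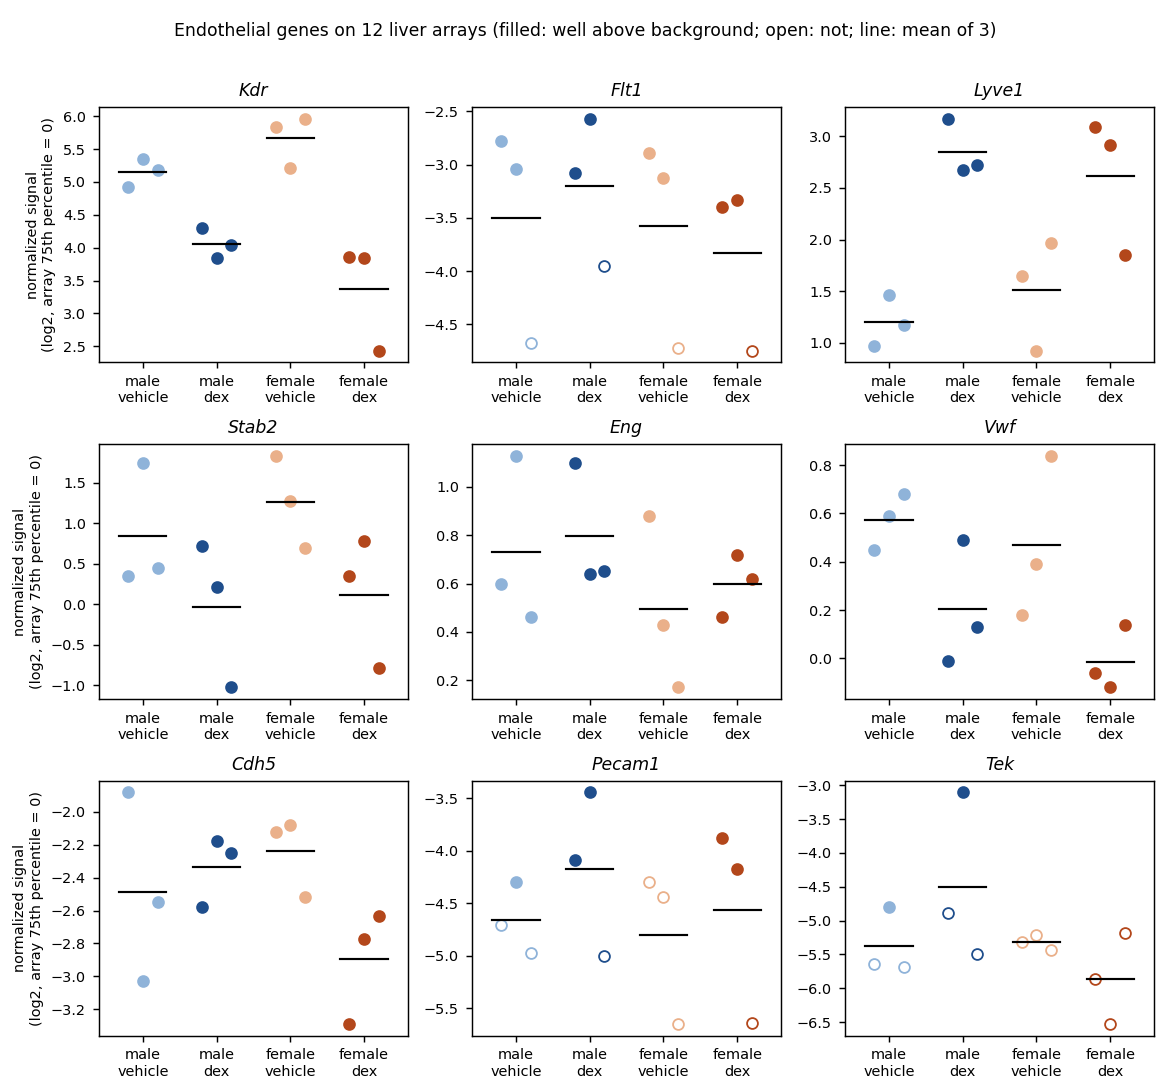
Normalized log2 signal (vertical axis, array 75th percentile at 0) of each endothelial gene on the 12 arrays, by group, with the mean of 3 arrays as a line and open points for arrays on which the probe was not well above background. Kdr lies lower and Lyve1 higher after dexamethasone in both sexes, with overlap only for Lyve1 in females, and most Tek and Pecam1 points are open.

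Kdr, the main VEGF receptor of endothelium, had normalized log2 signals of 4.92, 5.35 and 5.18 in the male vehicle arrays and of 4.30, 3.84 and 4.04 in the male dexamethasone arrays. In females they were 5.84, 5.21 and 5.96 after vehicle and 3.86, 3.84 and 2.43 after dexamethasone. Every dexamethasone array was below every vehicle array of the same sex, and the third female dexamethasone array was the lowest of all 12. The female log2 difference was -2.29 ± 0.37 (SE, n = 3 arrays a group), a 4.91-fold lower signal, with a limma adjusted p of 0.00149. It kept its call without any 1 of the 12 arrays, with differences from -2.53 to -1.82. The male difference was -1.09 ± 0.37, 2.13-fold lower, with a 95% confidence interval of -1.90 to -0.28 and an adjusted p of 0.0610, which missed the threshold. The pooled liver RNA cannot tell fewer endothelial cells from less Kdr RNA per cell.

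The Kdr difference was larger on slide 5 in females and changed little between slides in males. Slide 5 held 1 female array of each treatment, each from its own pool of animals, so slide and pool cannot be told apart. Within slide 5 the female difference was -3.53, and with slide as a fixed block it was -3.47 with an adjusted p of 0.00368. Without slide 5 it was -1.68 with an adjusted p of 0.00954. Within slide 5 the male difference was -1.14, and within slide 2, which held 1 male array of each treatment, it was -1.05. With slide as a fixed block the male difference was -1.06 and was called, with an adjusted p of 0.0157. It was also called on the normexp background correction (adjusted p 0.0282), under quantile normalization (0.0369), in the authors' deposited table (0.0313), with 5 other settings (0.0197 to 0.0418) and without the third female dexamethasone array (0.00873), which entered only through the shared estimate of spread. The male difference was not called with arrays centred on the median (limma adjusted p 0.106), without the filter (0.1) or with the replicate block (0.0698). Nor was it called with the mean of a gene's probes (0.0614), with every probe tested (0.0617) or without slide 5 (0.0534). In 11 of the 12 refits without 1 array it was not called, with adjusted p up to 0.159. The female minus male difference in response was -1.20 ± 0.52, with a limma adjusted p of 0.487, and 0.0288% of all genes were called in that comparison.

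Lyve1 moved the other way. Its brighter probe read 0.97, 1.46 and 1.17 in the male vehicle arrays and 3.17, 2.67 and 2.72 in the male dexamethasone arrays, with no overlap. The male log2 difference was 1.66 ± 0.36 (SE, n = 3 arrays a group), 3.15-fold higher, with a limma adjusted p of 0.00814. It was 1.55 within slide 5 and 1.72 within slide 2, and it kept its call without any 1 of the 12 arrays.

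In females the brighter probe read 1.65, 0.92 and 1.97 after vehicle and 3.09, 2.92 and 1.85 after dexamethasone. The third dexamethasone array lay below the third vehicle array, so the groups overlapped. The log2 difference was 1.11 ± 0.36, 2.15-fold higher, with a limma adjusted p of 0.0456, just inside the threshold. Within slide 5 it was -0.12, and with slide as a fixed block it was 0.06 with an adjusted p of 0.936. The call was also lost under quantile normalization (adjusted p 0.0602) and in the authors' deposited value table (0.0653). It was lost in 10 of the 12 refits that left out 1 array, with adjusted p up to 0.160 without the second female vehicle array. It was kept without the third female vehicle array (adjusted p 0.0326) and without the third female dexamethasone array (0.00921).

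The dimmer Lyve1 probe was higher after dexamethasone in females too, and also within slide 5. In females it read -0.74, -1.12 and -0.83 after vehicle and 0.93, 0.95 and -0.10 after dexamethasone, and the groups did not overlap. The log2 difference was 1.49 ± 0.37 in females and 1.43 ± 0.37 in males, with limma adjusted p of 0.0149 and 0.0204 over all 28173 probes, of which 23.9% and 19.7% were called and 42.8% and 35% had groups that did not overlap. In males it read -1.54, -0.58 and -1.06 after vehicle and 0.93, 0.37 and -0.20 after dexamethasone. Within slide 5 its differences were 0.73 in females and 0.86 in males, and with slide as a fixed block the female one was 0.89 with an adjusted p of 0.113. The Lyve1 probes thus disagreed on slide 5 in females and gave the same sign in the other within-slide values. The dimmer probe's call was also lost without some single arrays: vehicle array 1 (adjusted p 0.0719) or 3 (0.0550) and dexamethasone array 1 (0.0734) or 2 (0.0538) in males, and vehicle array 2 (0.0551) and dexamethasone array 1 (0.0589) or 2 (0.0629) in females.

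**Figure D2:**
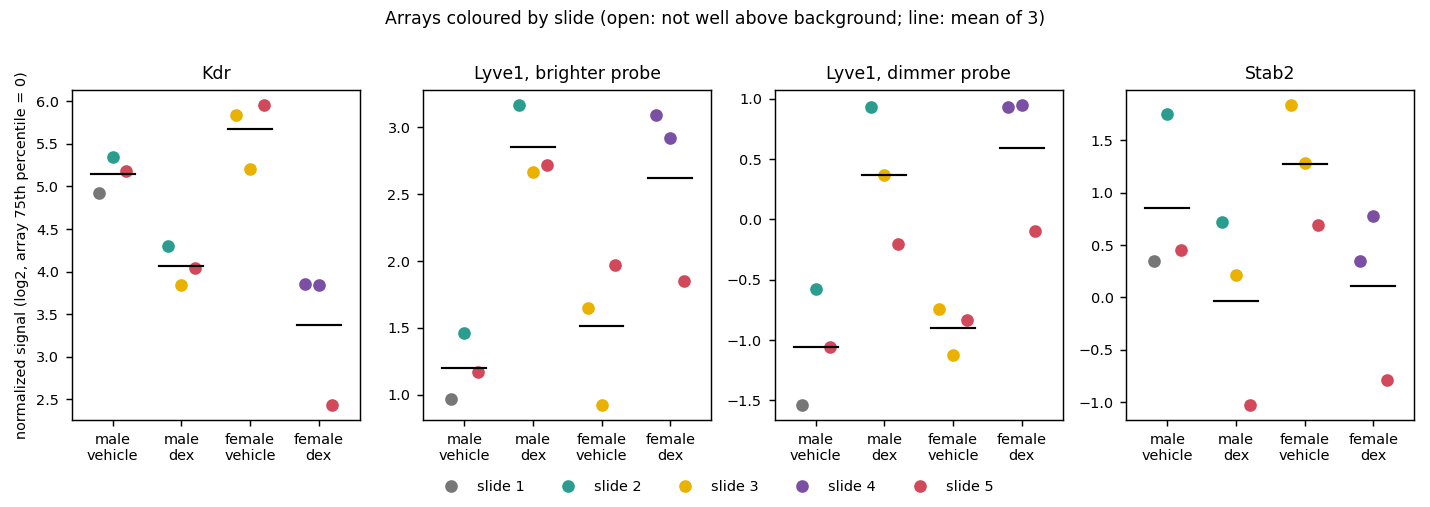
Normalized log2 signal (vertical axis) of Kdr, of both Lyve1 probes and of Stab2 on the 12 arrays by group, coloured by slide, with the mean of 3 arrays as a line. On slide 5 the brighter Lyve1 probe of the female dexamethasone array (1.85) lies below that of the female vehicle array (1.97), and Stab2 and Kdr are lower after dexamethasone on this slide in both sexes.

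Stab2, the second sinusoidal scavenger receptor, did not follow Lyve1. It read 0.35, 1.75 and 0.45 in the male vehicle arrays and 0.72, 0.21 and -1.03 in the male dexamethasone arrays. In females it read 1.84, 1.28 and 0.69 after vehicle and 0.35, 0.78 and -0.79 after dexamethasone. The groups overlapped in both sexes, and in each the array of slide 5 after dexamethasone was the lowest. The log2 differences were -0.88 ± 0.57 in males and -1.15 ± 0.57 in females, with limma adjusted p of 0.338 and 0.167. Within slide 5 both were -1.48. With slide as a fixed block Stab2 was called lower in both sexes, by -1.21 in males (adjusted p 0.0167) and by -1.40 in females (0.0451). The male difference was also called with slide as a random block (0.0467) and the female one was not (0.0585). The female difference was also called with array weights (0.0407), which hold no slide term. It was called with the replicate block too (0.0488), in which the third arrays are those of slide 5, so that block includes a term for this slide.

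Eng, the coreceptor for BMP9, was not called in either sex. Its signals were 0.60, 1.13 and 0.46 in male vehicle, 1.10, 0.64 and 0.65 in male dexamethasone, 0.88, 0.43 and 0.17 in female vehicle and 0.46, 0.72 and 0.62 in female dexamethasone arrays. All 4 groups overlapped. The log2 differences of 0.07 in males and 0.11 in females had 95% confidence intervals of -0.46 to 0.60 and -0.42 to 0.64, which exclude a change as large as the one of Lyve1 in males.

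Vwf, the platelet-binding protein stored in endothelial granules, was not called in either sex. Its values rest on the brighter probe alone, with a mean of 0.31. The second Vwf probe had a mean of -6.14, was well above background on 0 of 12 arrays and so did not bear out that signal. The signal of the brighter probe is given here. It read 0.45, 0.59 and 0.68 in male vehicle and -0.01, 0.49 and 0.13 in male dexamethasone arrays, where the groups overlapped by 1 array. In females it read 0.18, 0.39 and 0.84 after vehicle and -0.06, -0.12 and 0.14 after dexamethasone, with no overlap. The log2 differences of -0.37 ± 0.20 in males and -0.48 ± 0.20 in females had limma adjusted p of 0.251 and 0.110. Megakaryocytes and platelets also carry Vwf. Of the 6 measured genes of the platelet list 0 were called in either sex, and their summed linear signal, in units of the 75th percentile, ran from 1.23 to 3.12 over vehicle arrays and from 1.52 to 2.36 over dexamethasone arrays.

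Cdh5, the cadherin of endothelial junctions, read -1.88, -3.03 and -2.55 in male vehicle and -2.58, -2.18 and -2.25 in male dexamethasone arrays. In females it read -2.12, -2.08 and -2.52 after vehicle and -3.29, -2.77 and -2.63 after dexamethasone. The female groups did not overlap and the male ones did. The log2 difference of -0.65 ± 0.29 in females had an adjusted p of 0.132 by limma, and that of 0.15 ± 0.29 in males 0.797. The second Cdh5 probe differed by -0.54 in females and 0.28 in males, the same signs, and was not called.

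Flt1, Pecam1 and Tek were close to the array background, and their values set little more than bounds. The brighter Flt1 probe was well above background on 8 arrays and on none of slide 5. Its log2 differences were 0.30 ± 0.65 in males and -0.25 ± 0.65 in females. The second Flt1 probe, well above background on 10 arrays, differed by 0.65 ± 0.26 in males and 0.58 ± 0.26 in females, with limma adjusted p of 0.108 and 0.126 over all probes. The Flt1 probes thus differed in sign in females, and neither was called. Pecam1 was well above background on 5 arrays, 0 of them female vehicle, and differed by 0.48 ± 0.54 in males and 0.23 ± 0.54 in females. Tek was well above background on 1 male vehicle array (-4.80) and 1 male dexamethasone array (-3.10), and was not tested after the filter.

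**Figure D3:**
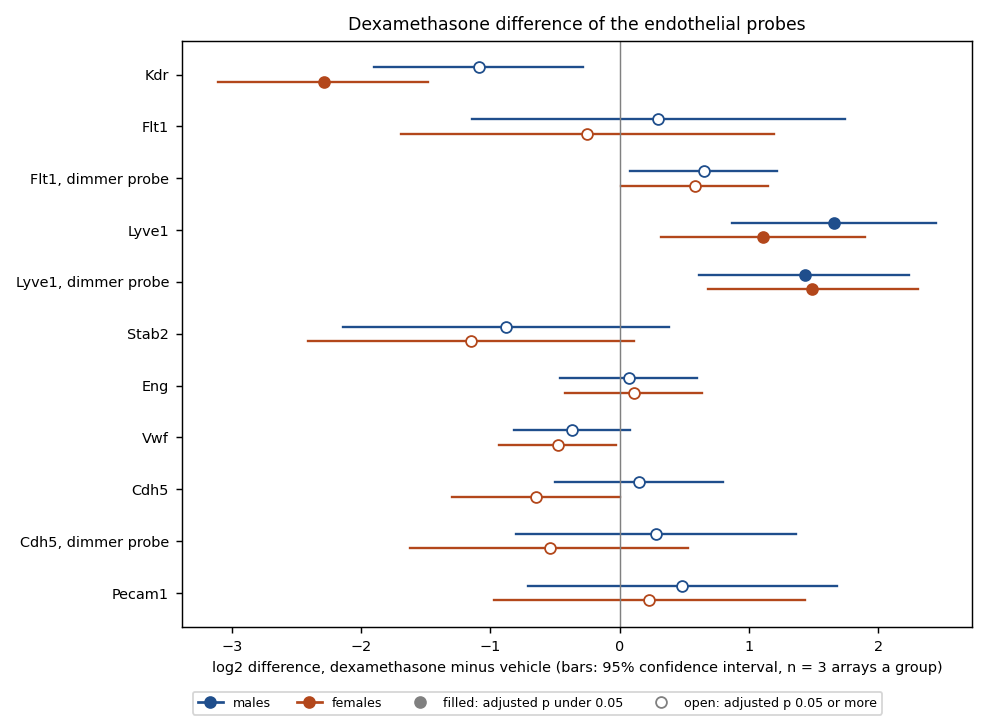
Log2 difference between dexamethasone and vehicle arrays (horizontal axis) of the 11 endothelial probes that passed the filter, in males and females, with 95% confidence intervals from limma (n = 3 arrays a group) and filled points where the adjusted p was under 0.05. Filled points are Kdr in females, on the lower side, and both Lyve1 probes in both sexes, on the higher side.

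The sexes were compared within each treatment. After vehicle 0 of 8 genes were called between the sexes, against 1.71% of all genes, and 0 of 8 had groups that did not overlap, against 15.6%. After dexamethasone 0 of 8 were called, against 2.31%, and the groups did not overlap for 1, Cdh5, against 23.1%. At an unadjusted p under 0.05, 0 of 8 passed in either of these comparisons. The female minus male log2 difference of Kdr was 0.52 ± 0.37 after vehicle and -0.68 ± 0.37 after dexamethasone, with limma adjusted p of 0.742 and 0.412. With slide as a fixed block Kdr was called lower in females after dexamethasone, by -1.68 with an adjusted p of 0.0482. It was -1.61 within slide 5 and -0.22 without that slide (adjusted p 0.720). The response to dexamethasone was called different between the sexes for 0 of the 8 genes, and 1, Kdr, had an unadjusted p under 0.05. Cdh5 had the next largest female minus male difference in response after Kdr, -0.80 ± 0.41, with an adjusted p of 0.545.

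The other genes of endothelial pathways, 100 measured genes in 7 lists, are shown beside the members because they act with them. Of these 24 were called in males, 10 higher and 14 lower, and 34 in females, 9 higher and 25 lower, that is 24% and 34% against 20.1% and 24.4% of all genes. Their median log2 difference was -0.18 in males and -0.36 in females. The background for the counts of each list below is the share of all genes by direction. It was 9.34% higher and 10.8% lower in males, and 11.7% higher and 12.6% lower in females. No list was tested as a set. Liver cells other than endothelium express many of them, and whole liver RNA does not say which cell a signal came from. All 24 male and 34 female differences kept their sign within slide 5 and under the normexp, quantile, median and authors' scalings. With slide as a fixed block 23 of the 24 and 19 of the 34 were still called. Among the genes named below, the female calls of Nrp1, Pgf, Bmpr2, Icam2, Jup, Jam3, Fli1, Gata4 and Ednra and the male call of Bmp6 were lost with that block, with adjusted p from 0.0539 to 0.241. On the normexp correction, which raises dim signals by an offset, calls were lost for Nrp1 and Pgf in both sexes and for Bmp6 in males and Bmpr2 and Tgfb1 in females. Differences were smaller by over 1.5 times on that correction for 14 of the 24 and 18 of the 34, among them Apln at -1.09 and -1.42 and Ednrb at -1.02 and -1.06. With arrays centred on the median they were lost for Nrp1 in males and for Acvrl1, Ets1, Gata4 and Podxl in females, and quantile normalization and the authors' deposited table ended the male calls of Nrp1 and Bmp6, the latter table also the female call of Pgf. In 17 of the 24 and 17 of the 34 the call held without any 1 array.

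Among partners of Kdr and Flt1, 7 VEGF ligands, receptors and coreceptors were measured, and 1 was called higher and 1 lower in each sex. The lower one was Nrp1, a coreceptor of Kdr, with limma adjusted p of 0.0419 and 0.0149. Nrp1 was well above background on 2 of 3 male and 1 of 3 female vehicle arrays and on 0 dexamethasone arrays, so it passed the filter of 3 arrays through the vehicle groups alone, and its calls are given without a fold. On the normexp correction it differed by -0.19 and -0.40 and was not called (adjusted p 0.608 and 0.132). Pgf (placental growth factor), a ligand of Flt1, was 1.03 ± 0.21 higher on the log2 scale in males (adjusted p 0.00634) and at least 1.27-fold higher in females (0.0484). The female value is a bound on this scale only, since Pgf was not well above background on any female vehicle array. It sets the brighter group's mean against the lowest signal counted as above background. On the normexp correction Pgf differed by 0.25 in males and 0.02 in females and was not called (limma adjusted p 0.391 and 0.948). The ligand Vegfa differed by -0.62 in males and -0.87 in females and was not called. The Nrp1 calls were lost without 8 single arrays in males and 3 in females, and the female Pgf call without 10. The highest adjusted p by limma were 0.142 (male vehicle array 2), 0.0578 (female vehicle array 1) and 0.141 (female dexamethasone array 3).

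Of 6 measured genes around Tek, 1 was called. Angpt2 (angiopoietin 2), the context-dependent antagonist of Tek released by endothelium, was -2.31 ± 0.35 on the log2 scale in females, with a limma adjusted p of 0.00115, and -2.72 within slide 5. In males it differed by -1.06 ± 0.35 with an adjusted p of 0.0591. Angpt1, the agonist, differed by -0.19 and 0.20, and Tie1, the related receptor, by -0.01 and -0.78, none called. On the normexp correction the female difference of Angpt2 was -0.93 and still called.

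Around Eng, 23 genes of BMP and TGF-beta signalling were measured. In males 2 were called higher and 4 lower, and in females 1 higher and 7 lower. Id3, a transcriptional target of BMP signalling, was lower by -1.37 ± 0.18 in males and -2.34 ± 0.18 in females on the log2 scale, with limma adjusted p of 0.000541 and 2.4e-05. Tgfbr2, the type 2 TGF-beta receptor, was lower by -1.82 and -1.80. The type 2 receptor Bmpr2 was higher by 1.69 and 1.53, and its calls were lost without 4 arrays in males and without 8 in females, one at a time. The ligand Bmp6 was 1.72 higher in males, a call lost without 6 single arrays, with an adjusted p up to 0.134 without the third male vehicle array. Acvrl1, which encodes ALK1, was lower by -0.96 ± 0.24 in females (adjusted p 0.0166, and 0.0528 without the first female vehicle array). Tgfb1 was lower by -1.28 and the inhibitory Smad6 by -1.32 in females. Their calls were lost without the first female vehicle array, with adjusted p of 0.0503 and 0.0839. Gdf2, the gene of BMP9, differed by -0.03 in males and -0.72 in females and was not called.

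The junction and adhesion list held 17 measured genes, of which 1 was called higher and 4 lower in males, and 1 higher and 5 lower in females. Icam2, an endothelial adhesion molecule for leukocytes, was lower by -1.51 ± 0.25 in males and -1.42 ± 0.25 in females on the log2 scale, with limma adjusted p of 0.00204 and 0.00274. Icam1, which leukocytes bind during inflammation, was lower by -1.67 and -1.07, and its female call was lost without 4 single arrays, with an adjusted p up to 0.0833 without the third female dexamethasone array. Jup (plakoglobin), a partner of cadherins at junctions, was lower by -1.49 and -1.04. F11r was lower in males by -1.25, and Podxl in females by -1.12. Jam3, a junctional adhesion molecule, was the one member called higher, by 2.03 ± 0.22 in males and 1.05 ± 0.22 in females. Jam3 was also lower in females than in males after dexamethasone, by -1.24 (adjusted p 0.0151, 0.0618 without the first male dexamethasone array and 0.112 with slide as a fixed block), while its response was not called different between the sexes.

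Of 17 endothelial transcription factors 0 were called higher, and 1 was called lower in males and 4 in females. Ets2 was lower by -1.32 ± 0.20 in males and -1.41 ± 0.20 in females, with limma adjusted p of 0.00101 and 0.000666. Sox18, a factor of vessel development, was lower by -1.54 ± 0.20 in females and differed by -0.61 in males, where the adjusted p was 0.0573. Fli1 and Ets1, both ETS factors, were lower in females by -1.45 and -0.82, calls lost without the first female vehicle array among others, with adjusted p of 0.0643 and 0.0620. Klf2, which responds to blood flow, differed by -0.86 in males and 0.10 in females and was not called.

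In the list of other sinusoidal genes, 15 were measured, and 1 was called higher and 2 lower in each sex. Ptgis, prostacyclin synthase, was higher by 1.64 ± 0.48 in males and 1.82 ± 0.48 in females on the log2 scale, with limma adjusted p of 0.0358 and 0.0199, and each call was lost without 3 single arrays. Gata4, the transcription factor of the sinusoidal program, was lower by -0.96 and -0.65, the latter lost without 4 single arrays. Il1a, an inflammatory cytokine, was lower by -1.21 and -1.78, and its male call was lost without 3 single arrays. Dnase1l3, Oit3, Mrc1 and Fcgr2b, other genes of sinusoidal endothelium, were not called in either sex. Cd36, a fatty acid transporter that hepatocytes carry too, was 2.88 higher in females than in males after vehicle and 3.41 higher after dexamethasone, with adjusted p of 0.0371 and 0.0132. Those sex calls were lost without 9 and 2 single arrays. Wnt2 was lower in females than in males after dexamethasone, by -0.81 (adjusted p 0.0442, lost without 10 single arrays). Id1 of the BMP list was 1.40 and 0.95 higher in females, with the second call lost without 11 single arrays. Of the 100 list genes, 2% were called between the sexes after vehicle and 4% after dexamethasone. The shares of all genes were close to these, 1.71% and 2.31%. With slide as a fixed block 0 of the 2 sex calls of list genes after vehicle and 1 of the 4 after dexamethasone, that of Cd36, were kept.

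Among the 7 lists, genes of vascular tone and haemostasis were called most often. In males 5 of 15 were higher and 2 lower, against 9.34% and 10.8% of all genes. In females 5 were higher and 5 lower, against 11.7% and 12.6%. F3 (tissue factor) was higher by 2.32 and 1.91 on the log2 scale. Apln (apelin), a peptide of endothelial tip cells, was lower by -2.99 ± 0.58 in males and at least 10.7-fold lower in females. The female value is a bound on this scale only, as for Pgf. On the normexp correction Apln differed by -1.09 in males and -1.42 in females, both smaller and still called. The endothelin receptor Ednrb was lower by -2.18 in each sex, while the receptor Ednra and the endothelin-converting enzyme Ece1 were higher, by 1.12 and 1.55 and by 1.85 and 1.42. The male Ednra call was lost without 5 single arrays. The anticoagulant receptor Thbd and the nitric oxide synthase Nos3 were not called.

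**Figure D4:**
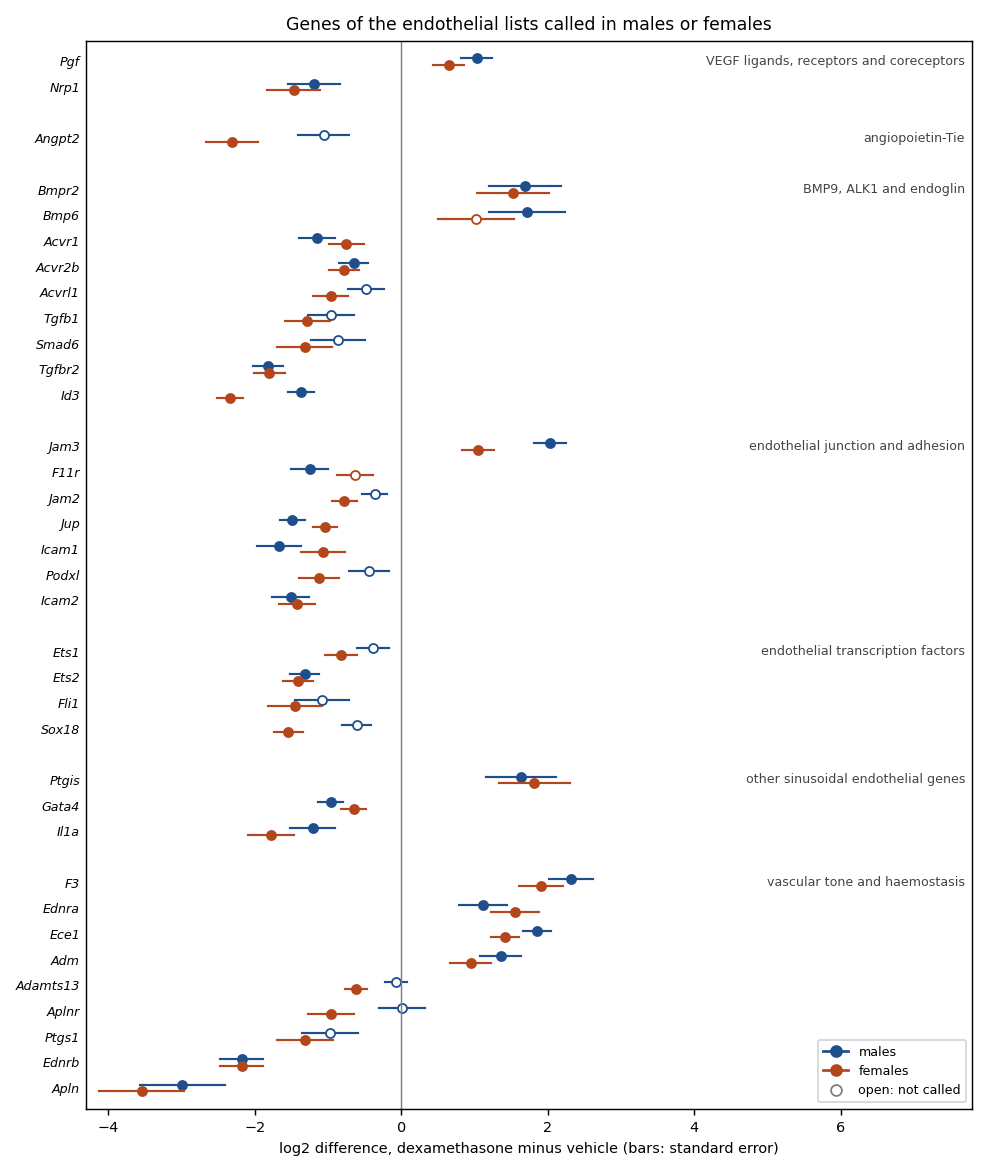
Log2 difference between dexamethasone and vehicle (horizontal axis) in males and females, with standard errors (n = 3 arrays a group), for genes of the 7 endothelial lists called in at least 1 sex (1 is not shown), with open points where a sex was not called. Angpt2, Id3 and Sox18 lie further below 0 in females, and Jam3 lies further above 0 in males, while 0 of the 100 listed genes were called for a difference between the sexes in response.

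Other cell types were followed by lists of their own markers. The summed linear signal of the 8 endothelial genes was 36.9 to 51.0 in male vehicle, 25.2 to 33.9 in male dexamethasone, 44.4 to 71.1 in female vehicle and 12.4 to 26.9 in female dexamethasone arrays, in units of the 75th percentile. Kdr made up 80.2% to 87.8% of this sum after vehicle and 43.3% to 62.1% after dexamethasone. Without Kdr the sum was 6.57 to 10.1 and 10.1 to 14.2 in males, and 7.37 to 10.1 and 7.05 to 12.4 in females, for vehicle and dexamethasone. The sum with Kdr was lower on every dexamethasone array than on every vehicle array of the same sex, and the sum of the other 7 genes was not. Of these 7, Lyve1 had the highest mean log2 signal over the 12 arrays (2.05, against 0.66 for Eng, the next). Lyve1 was itself called higher after dexamethasone, so the linear sum is not an even reading of the 7 genes.

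Of all genes, 10.8% were called lower in males and 12.6% in females, which is the background for the marker counts that follow. T and NK cell genes were lower for 4 of 7 measured members in males and 6 of 7 in females, with sums of 3.64 to 6.02 over vehicle and 1.63 to 2.31 over dexamethasone arrays. Of these calls 2 of the 4 and 3 of the 6 were kept with slide as a fixed block, and on the normexp correction 2 and 4. Gzma and Cd8a, both genes of cytotoxic lymphocytes, kept theirs in both sexes under both settings. Cd8a was near background, however, with a mean signal of -3.77 and at most 6 arrays well above background. Its log2 differences of -2.22 in males and -1.62 in females shrank to -0.46 and -0.48 on the normexp correction. Cd5, called lower in females, was also dim, with a mean of -4.04 and at most 6 such arrays. On the normexp correction it differed by -0.38 in females and was not called (limma adjusted p 0.125). Stellate cell and fibroblast genes were lower for 3 of 11 in males and 4 of 11 in females. The median log2 difference of the 11 was 0.1 in males and -0.48 in females. Their sums overlapped in males, 61.4 to 80.7 after vehicle and 59.8 to 70.8 after dexamethasone. In females the sums were 68.1 to 83.5 and 36.9 to 64.9. The genes named next are called ones. Pdgfrb differed by -1.40 and -2.30 and Lrat by -1.08 and -2.15 on the log2 scale. Ngfr was called lower in each sex, but was well above background on 3 arrays only, the fewest that the filter allowed. Its mean signal was -5.11, so its calls are given without a size. On the normexp correction Ngfr differed by -0.13 and -0.42 and was not called (limma adjusted p 0.726 and 0.0917). Kupffer cell genes were lower for 2 of 10 in each sex, Aif1 and Tyrobp, and their male calls were lost without 8 and 4 single arrays and the female Aif1 call without 4. With arrays centred on the median both male calls and the female Aif1 call were lost, with adjusted p from 0.0656 to 0.0711. Of the 6 hepatocyte genes and of the 4 erythroid genes 0 were called, and the hepatocyte sum was 2970 to 6010 after vehicle and 4560 to 6510 after dexamethasone. Of 5 bile duct genes and 3 lymphatic endothelial genes 0 were called in males, and 1 of each was lower in females, Krt7 by -1.65 and Ccl21 by -1.21. Both calls were lost with slide as a fixed block (adjusted p 0.0619 and 0.0626), and that of Ccl21 also with arrays centred on the median (0.0701) and without 3 single arrays. The B cell gene Cd79b, the 1 measured of its list, was lower by -2.28 and -2.43 on the log2 scale. On the normexp correction these were -0.71, no longer called (adjusted p 0.107), and -1.03. The female call was lost with slide as a fixed block (0.0656), and the male and female calls without 2 and 1 single arrays. The B cell marker Ms4a1 and the T cell markers Cd3e and Cd2 were not well above background on any array. The part of these cell types in the differences of Kdr and Lyve1 was not tested.

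**Figure D5:**
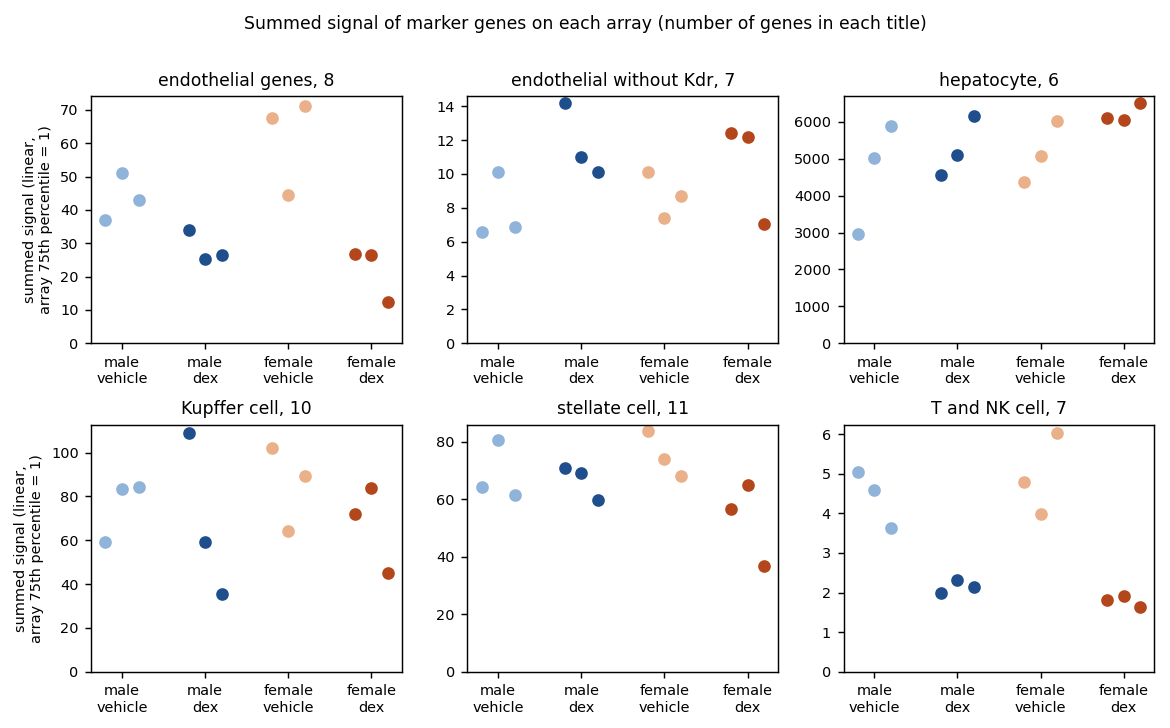
Summed linear signal (vertical axis, array 75th percentile at 1, starting at 0) of the measured marker genes of each cell type on the 12 arrays by group. The endothelial sum is lower after dexamethasone with Kdr (12.4 to 26.9 against 44.4 to 71.1 in females) and overlaps between treatments in females without it, and the T and NK cell sums of all dexamethasone arrays (1.63 to 2.31) lie below those of all vehicle arrays (3.64 to 6.02).

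The genes whose signal ran most like that of a member were found by Pearson's r over the 12 arrays, among 12081 genes with a reference symbol, as a description of arrays that share slides and treatment. For Kdr they were Gng11 (r = 0.988), Dchs1 (0.983) and Exoc3l2 (0.976). Dchs1 and Exoc3l2 were called lower in both sexes, by -1.36 and -1.33 in males and -2.05 and -2.28 in females on the log2 scale. Gng11 was called lower in females, by -1.17, and not in males (-0.53, limma adjusted p 0.115). Genes picked by r over these arrays share a member's treatment difference by selection, so their calls are no separate evidence. For Lyve1 they were Adgrf5 (r = 0.962), Tinagl1 (0.955) and Galnt18 (0.953), called higher in males by 1.54, 2.11 and 2.18 and in females by 1.32, 1.61 and 1.65. In females these 3 differed by 0.40, 0.85 and 0.79 within slide 5, each smaller than over all slides, and with slide as a fixed block their female calls were lost (adjusted p 0.155 to 0.325). For Stab2 the closest were Hip1 (0.974), Serpinh1 (0.965) and Fyn (0.965), and for Vwf Plec (0.960), Tbc1d12 (0.917) and Hspb6 (0.901). The closest to Cdh5 was Or1e21b (0.966), to Pecam1 Ppp4r3a (0.915) and to Eng Ppp2cb (0.871).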

How the data were processed

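Each of 12 arrays was a scanner file of Agilent Feature Extraction (version 9.1.3.1, per the file headers), deposited by the authors, with a background-subtracted linear intensity per spot and a flag for spots well above background. Per the labels, 500 ng of RNA was labelled with Cy3. The authors' deposited value table, used as an alternative, holds log10 values, as its match with log10 of the processed signal shows (r of 0.996 or more, column medians 1.49 to 1.52), and its scaling and centring are unknown. Genes were named through RefSeq accessions or symbols (20255 of 41012 probes), otherwise as in the files. Control and outlier spots were left out, and spots of a probe averaged. Log2 intensity minus each array's 75th percentile was used for probes well above background on 3 arrays, with 2 usable arrays in every group. Limma 3.58.1 (R 4.3.3) fitted 4 group means and 5 contrasts on the brightest probe per gene, with Benjamini-Hochberg adjustment. The number of arrays limits the precision. The test was tried on simulated data. The members and lists were chosen with earlier results of these data known. Named genes were all members, up to 4 called genes per list and contrast by size, all list genes called between the sexes, and the 3 most alike genes of each member. A few genes that this rule names are not reported here. Genes named beyond these were chosen after their values were seen. Same-numbered arrays deviated together (r over 0.1) in 11 of 18 pairs, against 7 of 36 pairs of different number. All 6 pairs of number 3, which share slide 5, did so, but 2 of 6 of number 1 and 3 of 6 of number 2, so the numbers were not taken as pairs.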

Additional observations from a re-analysis of the deposited data

How the results depend on the processing

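The counts of called endothelial genes, 1 in males and 2 in females, changed with the processing. In males 2 were called with normexp, quantile normalization, the authors' table, probes above background on all arrays, an intensity trend, array weights or the compared groups alone, and 3 with slide as a fixed or random block. In females 1 was called with quantile normalization, the authors' table, no filter on dim probes, the random slide block or the compared groups alone, and 4 with array weights. After dexamethasone 1 gene, Kdr, was called between the sexes with the fixed slide block. Leaving out 1 array gave 1 to 2 in males, 1 to 2 in females and 0 to 0 elsewhere. The cause was not tested. The replicate block gave Lyve1 in females an adjusted p of 0.053 and Stab2 in females 0.0488, and changed no other dexamethasone call of a member.

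Of the differences that changed sign under another setting, Lyve1 in females, at -0.12 within slide 5, was the one called as reported. On the normexp correction Eng in males and Pecam1 in females were each -0.07, and Pecam1 between the sexes after vehicle 0.03. The female minus male response of Pecam1 was 0.05 with quantile normalization and 0.21 in the authors' table, and that of Vwf 0.04 with median centring and 0.02 with the fixed slide block, where Eng after dexamethasone was 0.13 between the sexes. With the mean of a gene's probes Flt1 was 0.17 in females and 0.03 between the sexes after vehicle. Without slide 5 Eng was -0.06 in females and -0.07 in the response difference, Lyve1 0.01 in the response difference and 0.09 between the sexes after dexamethasone, and Pecam1 0.14 after vehicle. With array weights Eng was -0.03 in males, -0.06 in females and -0.04 in the response difference, Flt1 0.26 and Pecam1 0.12 after vehicle, and Lyve1 0.03 after dexamethasone. With the compared groups alone Flt1 was 0.58 in females and 0.07 after dexamethasone.

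Without 1 array, signs also changed as follows. In males Eng ran from -0.08 to 0.27, Flt1 from -0.29 to 0.79 and Cdh5 from -0.12 to 0.46. In females Eng ran from -0.05 to 0.30, Flt1 from -0.82 to 0.79 and Pecam1 from -0.19 to 0.77. The response difference ran from -0.16 to 0.23 for Eng, -1.12 to 0.14 for Flt1, -0.68 to 0.29 for Pecam1, -0.26 to 0.07 for Vwf and -0.77 to 0.18 for Stab2. Between the sexes after vehicle it was -0.67 to 0.49 for Flt1, -0.38 to 0.29 for Pecam1, -0.03 to 0.55 for Cdh5 and -0.29 to 0.04 for Vwf. After dexamethasone it was -1.0 to 0.07 for Flt1, -0.47 to 0.15 for Lyve1, -0.80 to 0.15 for Pecam1 and -0.35 to 0.60 for Stab2.

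Over all genes, 5919 were called in females, 3105 with the fixed slide block, 3737 without female dexamethasone array 2 and 11879 with array weights, and 4895 in males and 7751 with the random block. For the response difference the 7 called genes became 28 with normexp, 13 with an intensity trend, 125 with array weights, 4 on probes above background everywhere, 0 without the filter or slide 5, and 0 to 7 without 1 array. Between the sexes, 415 calls after vehicle became 178 to 654 and 561 after dexamethasone became 294 to 2336. With 3 pools a group, and with Flt1, Pecam1 and Tek near background, small differences of these genes cannot be seen. The values within slide 2 and of the dimmer Lyve1 probe were added after the data were seen.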
